A study of Mus musculus with 12 samples.

Results

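Trp53, which encodes the tumor suppressor p53, and 9 genes that p53 is known to activate directly (Cdkn1a, Mdm2, Ccng1, Phlda3, Bax, Bbc3, Trp53inp1, Zmat3 and Eda2r) were followed through the mammary glands and mammary tumors of 2 mice. The 10 genes were taken by name, and all 10 were found among the 21743 genes of the count table. Both mice were of mixed C57BL/6 and 129/Sv background and carried MMTV-Cre with Brca1flox/flox, so that glands and tumors share the same genotype and no group with intact Brca1 was compared. MMTV-Cre drives recombination in mammary epithelium, and the labels name no engineered Trp53 allele and give no age. MG1 is the fourth pair of glands of mouse 1 (2 libraries, 818 cells) and MT1 its tumor (5 libraries, 7690 cells), while MG2 (2 libraries, 2335 cells) and MT2 (3 libraries, 10314 cells) are those of mouse 2. Suspensions were enriched for epithelium and measured by Drop-seq, in which each captured RNA molecule is tagged with a unique molecular identifier (UMI) near its 3′ end. With 1 gland pair and 1 tumor per mouse, libraries of a group repeat the preparation and not the animal, and every p-value of a fit over libraries measures the spread from library to library, not from mouse to mouse.

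p53 is a transcription factor that is kept at low level by the ubiquitin ligase Mdm2, which is itself a p53 target, and that is stabilised after DNA damage, mainly at the protein level. Its targets stop the cell cycle (Cdkn1a, the kinase inhibitor p21), feed back on p53 (Mdm2, Ccng1), restrain Akt signalling (Phlda3), promote apoptosis (Bax, Bbc3, Eda2r), or take part in stress responses and RNA control (Trp53inp1, Zmat3). Brca1 acts in repair of DNA double-strand breaks by homologous recombination, and loss of p53 function is a common companion of Brca1 loss in mammary tumors.

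Depth ranged from 693333 UMIs in 105 cells (MG1 replicate 2) to 14841414 UMIs (MT2 replicate 1), with the median UMIs per cell between 1784 and 4842. Libraries shared at most 7 cell barcodes. In the cells outside the stromal clusters, the targeted gene Brca1 had 0 UMIs in both MG1 libraries, 1.91 and 2.59 CPM (UMI counts scaled to the normalized total of these cells) in MG2, 7.82 to 16.5 CPM in MT1 and 9.07 to 11.7 CPM in MT2, and 3′ tags do not show whether the floxed exon was removed. Clusters were named from marker lists. The gland cells fell mainly into luminal hormone-sensing-like (1185 gland cells), luminal secretory-like (1210) and basal-like (327) clusters, while 1121 cells were stromal, in clusters called fibroblast-like (697 cells), endothelial-like (245) or immune-like (179). MT1 cells formed 2 epithelial-like clusters (cluster 3, led by Sfrp1 and Igfbp5, and cluster 4, led by Ccl20) and cluster 5, led by Prl2c3 and Cav1, which stayed unnamed. MT2 cells formed clusters 1 (led by Grem1 and Ptgs2) and 2 (led by Cenpe and Top2a), in which 0 of 9 epithelial markers were raised, so the epithelial-enriched label of MT2 is not met by these markers, and cluster 5 also had 0 of 9. 61 gland cells lay in tumor clusters and 98 tumor cells in gland clusters.

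Because p53 acts through DNA sites, the promoters of the genes are shown first. The p53 consensus element is a pair of 10-base motifs (the p53 decamer consensus, which reads the same on both strands) separated by 0 to 13 bases. RefSeq promoter windows of GRCm38.p6, from 250 bases before to 50 after a gene start, matched 8 of the 10 genes (11 windows), and Trp53inp1 and Zmat3 had no entry. An exact decamer was present in 5 of the 11 windows, which belong to 5 different genes (Cdkn1a, Ccng1, Bax, Mdm2 and Trp53), against 8.36% of all 32851 windows. These 5 stretches are printed 5′ to 3′ on the strand of the gene, with the decamers in capitals and 20 bases on either side:
Cdkn1a, chr17:29090886-29090957, plus strand: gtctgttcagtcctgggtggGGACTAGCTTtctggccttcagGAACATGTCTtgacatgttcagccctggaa
Ccng1, chr11:40755442-40755491, minus strand: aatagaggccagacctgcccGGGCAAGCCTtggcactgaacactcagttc
Bax, chr7:45467070-45467119, minus strand: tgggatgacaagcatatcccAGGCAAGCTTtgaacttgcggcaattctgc
Mdm2, chr10:117710915-117710964, minus strand: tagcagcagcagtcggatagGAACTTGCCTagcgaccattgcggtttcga
Trp53, chr11:69580264-69580313, plus strand: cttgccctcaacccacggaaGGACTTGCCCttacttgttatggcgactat

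The window at the first Cdkn1a start held 2 exact decamers, starting 73 and 51 bases before the gene start and 12 bases apart, which makes a complete element with 0 mismatches, found in 24 of all windows (0.0731%). The search kept the pair with the fewest mismatches, so other pairings in this stretch, such as those with no spacer, are not marked. The window at the other Cdkn1a start held 0 exact decamers, and its best element had 5 mismatches. The Ccng1 window held a complete element with 1 mismatch and no spacer, and windows with at most 1 mismatch were 0.627% of all. The Bax window held one with 2 mismatches (at most 2 in 4.09% of all windows). The windows of Phlda3, Bbc3 and Eda2r held no exact decamer. These are matches of letters in a short window and not measured binding.

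To compare each tumor with the gland of the same mouse, UMI counts were summed per library over the 20036 cells outside the stromal clusters and tested with edgeR's quasi-likelihood test across 13665 genes (called: Benjamini-Hochberg adjusted p under 0.05). CPM below are scaled to the normalized library total. In cell sums of this kind, fewer cells of a type and less RNA per cell cannot be told apart.

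Trp53 (chr11:69580348-69591873) changed in opposite directions in the 2 tumors, which was known when the genes were chosen and is given as the base of what follows. In mouse 1, Trp53 stood at 49.1 and 34.7 CPM in the MG1 libraries and between 102 and 119 CPM in the 5 MT1 libraries (median 108). In mouse 2, it stood at 47.8 and 55.1 CPM in the MG2 libraries and at 10.02, 11.95 and 10.5 CPM in MT2. Every MT1 library was above, and every MT2 library below, all 4 gland libraries. The log2 fold change was 1.31 ± 0.17 (SE) in MT1 against MG1 and -2.25 ± 0.16 in MT2 against MG2.

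Of the 9 targets, 0 were called higher in MT1 with a call for lower in MT2, a pattern met by 5% of all genes tested (683 genes), and 0 had the reverse pattern (2.47% of all genes). 4 of the 9 (Cdkn1a, Mdm2, Bbc3 and Trp53inp1) were called lower in both tumors, against 16.6% of all genes. Without MG1 replicate 1 the MT1 calls of Bbc3 and Trp53inp1 were lost, and without MG1 replicate 2 those of Mdm2 and Bbc3, which left 2 of the 9 in either case. In MT1, 6 of 9 targets fell and 0 rose, where 59.4% of all genes were called (27.1% lower and 32.3% higher). In MT2, 5 of 9 fell and 1 rose, where 66.8% were called (34.2% lower and 32.6% higher). The 5 include Eda2r, which passed the low-count filter only through MT1, where it was high. The median log2 fold change of the 9 targets was -0.83 in MT1 and -0.99 in MT2, beside 0.10 and -0.05 over all genes tested.

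**Figure D1:**
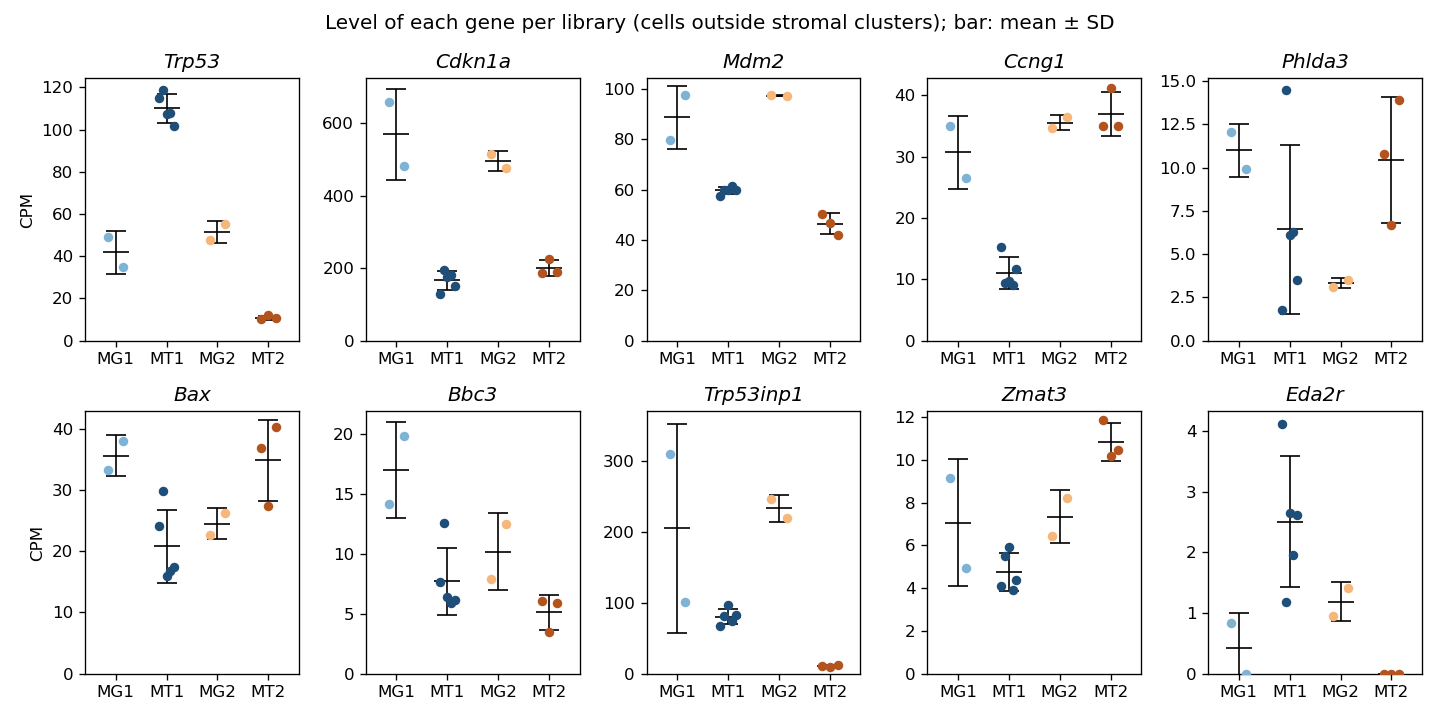
CPM of each of the 10 genes (vertical axes start at 0, one panel per gene) in the libraries of MG1 (2), MT1 (5), MG2 (2) and MT2 (3); points are libraries and the bar is mean ± SD. Trp53 is above the glands in MT1 and below them in MT2, whereas Cdkn1a and Mdm2 are below the glands in both tumors.

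Cdkn1a (chr17:29090979-29100722) stops cells before DNA replication by inhibiting cyclin-dependent kinases. It stood at 659 and 481 CPM in MG1 and between 129 and 195 CPM in MT1 (median 175), and at 514 and 476 CPM in MG2 and 187, 226 and 189 CPM in MT2. Gland and tumor libraries did not overlap in either mouse. It fell by 1.78 ± 0.16 on the log2 scale in MT1 (adjusted p = 9.85e-08) and by 1.30 ± 0.18 in MT2 (adjusted p = 4.34e-06), although Trp53 was high in the first tumor and low in the second. The median share of mitochondrial UMIs per cell was 11.5% and 8.53% in the MG1 libraries and 4.67% to 8.34% in MT1, without overlap, and 7.63% and 8.70% in MG2 and 8.05%, 4.48% and 5.04% in MT2, and its part in the tumor changes of the 10 genes was not tested. The difference between the 2 changes, mouse 1 minus mouse 2, was -0.48 ± 0.25 (adjusted p = 0.131, not called). This difference was called without the 1403 cells of cluster 5 (-0.82, adjusted p = 0.0123), an alternative chosen after seeing the data, in 3 other alternatives that kept all libraries, and without MG1 replicate 2 (-0.68) or MT1 replicate 2 (-0.69).

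Mdm2 (chr10:117688875-117710758), the ligase that marks p53 for degradation, stood at 79.9 and 97.6 CPM in MG1, 57.6 to 61.4 CPM in MT1 (median 59.9), 97.5 and 97.2 CPM in MG2, and 50.3, 46.9 and 42.1 CPM in MT2. The order was glands, then MT1, then MT2, with no overlap between neighbouring tissues. It fell by 0.54 ± 0.15 on the log2 scale in MT1 (adjusted p = 0.00450) and by 1.07 ± 0.14 in MT2 (adjusted p = 2.21e-06). Without MG1 replicate 2 the MT1 fall was -0.40 and not called. The fall was smaller in mouse 1 by a log2 difference of 0.53 ± 0.20 (adjusted p = 0.0429), a call that was lost in 10 of the 11 alternatives that kept all libraries (adjusted p 0.0564 to 0.201 there) and without any 1 of 10 of the 12 libraries.

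Ccng1 (chr11:40748552-40755309), cyclin G1, recruits a phosphatase to Mdm2. It stood at 34.9 and 26.5 CPM in MG1 and between 8.996 and 15.3 CPM in MT1 (median 9.69), but at 34.7 and 36.5 CPM in MG2 and 34.9, 41.1 and 34.9 CPM in MT2. The MT1 libraries lay below every other library. It fell by 1.61 ± 0.22 on the log2 scale in MT1 (adjusted p = 8.05e-06), and its log2 change in MT2 was 0.06 ± 0.17 (adjusted p = 0.787). The difference between the mice, -1.67 ± 0.28 (adjusted p = 1.13e-04), ran against that of Trp53.

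Phlda3 (chr1:135766085-135769134) competes with Akt for membrane lipids. It was scarce, with 12.1 and 9.92 CPM in MG1, 1.76 to 14.5 CPM in MT1 (median 6.10), 3.11 and 3.53 CPM in MG2, and 10.8, 6.67 and 13.9 CPM in MT2. MT1 libraries spread over both sides of MG1, while MT2 libraries were all above MG2. Its log2 change was -0.83 ± 0.53 in MT1 (adjusted p = 0.191), and it rose by 1.65 ± 0.50 in MT2 (adjusted p = 0.00764), the 1 target called higher in a tumor. The call in MT2 was lost without MG2 replicate 1, where MG2 rests on 1 library. The MT1 change was called without MT1 replicate 2 (-1.19) and, an alternative chosen after seeing the data, without cluster 5 (-1.21).

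Bax (chr7:45461695-45466903) forms pores in the outer mitochondrial membrane. It stood at 33.3 and 38.0 CPM in MG1 and 15.9 to 29.8 CPM in MT1 (median 17.5), against 22.7 and 26.3 CPM in MG2 and 36.9, 27.4 and 40.4 CPM in MT2. Tumor libraries lay below the gland in mouse 1 and above it in mouse 2. It fell by 0.80 ± 0.27 on the log2 scale in MT1 (adjusted p = 0.0158), and its log2 change in MT2 was 0.51 ± 0.23 (adjusted p = 0.0615), which passed the threshold in 4 of 12 alternatives that kept all libraries and without any 1 of 6 libraries (MG1 replicates 1 and 2, MT1 replicates 1, 2 and 5, MT2 replicate 2). The difference between the mice was -1.31 ± 0.35 (adjusted p = 0.00622), again against that of Trp53.

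Bbc3 (chr7:16308398-16318334), which encodes the BH3-only protein Puma, activates Bax. It stood at 14.1 and 19.8 CPM in MG1, 5.87 to 12.6 CPM in MT1 (median 6.41), 7.89 and 12.5 CPM in MG2, and 6.04, 3.45 and 5.90 CPM in MT2. All tumor libraries were below their gland. It fell by 1.10 ± 0.38 on the log2 scale in MT1 (adjusted p = 0.0185) and by 0.99 ± 0.32 in MT2 (adjusted p = 0.0120), with a difference of -0.11 ± 0.50 between the mice (adjusted p = 0.902). The MT1 call was lost without either MG1 library, with a log2 change of -1.42 without replicate 1 and -0.93 without replicate 2. The MT2 call was lost without MG2 replicate 2 (-0.59). In each case 1 library stands for the gland.

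Eda2r (chrX:97333837-97377234), a receptor of the tumor necrosis factor family for ectodysplasin A2, was near the detection limit. It had 2 and 0 UMIs in MG1, 46 UMIs over MT1 (1.18 to 4.11 CPM, median 2.62), 4 and 6 UMIs in MG2, and 0 UMIs in each MT2 library. A count of 0 over MT2 allows up to 0.0731 CPM (3 counts over the group). The pooled MG2 level of 1.25 CPM was 17.1-fold above this limit (adjusted p = 8.30e-05 for MT2 against MG2). This fold leaves out the counting error of the 10 UMIs of MG2 and is not a lower bound. MT1 against MG1 gave a ratio of 3.78 with an exact Poisson 95% interval of 0.989 to 32.2, and a log2 change that was not called (adjusted p = 0.0838). The pooled MT1 level of 2.36 CPM was 32.4-fold above the limit of MT2, again without counting error (adjusted p = 5.45e-07 for MT1 against MT2). Eda2r passed the low-count filter only through the MT1 libraries, where it was high. Its p-values are therefore given for completeness and are no support for a pattern of the targets.

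Trp53inp1 (chr4:11156441-11174379), a stress protein that promotes p53 phosphorylation and autophagy, showed the largest called fall of the targets with UMIs in every group. It stood at 310.3 and 101 CPM in MG1, 67.0 to 96.8 CPM in MT1 (median 81.2), 247 and 220 CPM in MG2, and 10.98, 9.65 and 11.7 CPM in MT2. MT2 libraries lay far below every other library. It fell by 4.44 ± 0.29 on the log2 scale in MT2 (adjusted p = 2.62e-10) and by 1.42 ± 0.25 in MT1 (adjusted p = 9.66e-05). The MT1 fall was -0.30 and not called without MG1 replicate 1. The difference between the mice was 3.01 ± 0.39 (adjusted p = 6.32e-06), in the direction of Trp53.

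Zmat3 (chr3:32334792-32365665), an RNA-binding zinc finger protein, stood at 9.15 and 4.96 CPM in MG1, 3.91 to 5.94 CPM in MT1 (median 4.37), 6.45 and 8.23 CPM in MG2, and 11.9, 10.2 and 10.5 CPM in MT2. MT2 libraries were above all others, and MT1 overlapped MG1. Neither log2 change was called (-0.74 ± 0.34, adjusted p = 0.0692, in MT1, and 0.56 ± 0.24, adjusted p = 0.0515, in MT2), and they were called in 5 and 7 of 12 alternatives that kept all libraries. The MT1 change was -0.02 without MG1 replicate 1, and it was also called without MG1 replicate 2 or MT1 replicate 3, and the MT2 change without either MG1 library or MT1 replicate 1, 2 or 5. The difference between the mice, -1.30 ± 0.42 (adjusted p = 0.0183), ran against that of Trp53 and was not called without MG1 replicate 1 (-0.59) or MG2 replicate 1.

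**Figure D2:**
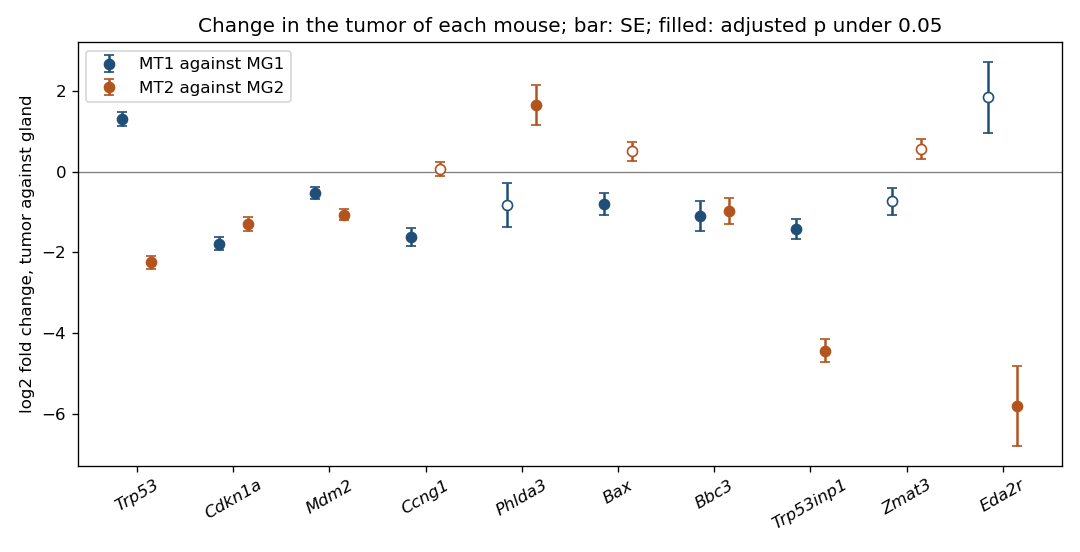
Log2 fold change of tumor against gland (vertical axis, ± SE) for the 10 genes in mouse 1 (blue, MT1 against MG1) and mouse 2 (brown, MT2 against MG2), with filled points for adjusted p under 0.05. Trp53 goes from 1.31 to -2.25, Cdkn1a, Mdm2, Bbc3 and Trp53inp1 are below 0 in both mice, and the fitted Eda2r value of MT2 stands for 0 UMIs and is not a measured fold.

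The interaction test asked whether the tumor change of a gene differed between the mice. The log2 difference of Trp53, known when the genes were chosen, was 3.56 ± 0.24. The test was called for 7 of the 9 targets, where 43.5% of all genes were called. 3 targets (Mdm2, Trp53inp1 and Eda2r) differed in the direction of Trp53 and 4 (Ccng1, Phlda3, Bax and Zmat3) in the opposite one, where 26.3% and 17.2% of all genes were called. Of these, Eda2r passed the low-count filter only through the MT1 libraries, where it was high. Its direction was thus partly fixed in advance, and its call adds no support. Without MG1 replicate 1 the members called, Trp53 included, went from 8 to 5 (Mdm2, Phlda3 and Zmat3 lost), and in MT1 against MG1, again with Trp53 included, from 7 to 4 (Bax, Bbc3 and Trp53inp1 lost). MG1 then rests on replicate 2 alone, with 76 cells in the sums, and this library is assumed to vary like the others.

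Between the tumors themselves, 7 of the 10 genes, Trp53 included, were called, where 68.2% of all genes were (35.2% higher and 33% lower in MT1). Trp53 (log2 difference of MT1 against MT2 3.34 ± 0.14), Trp53inp1 (2.91 ± 0.25), Eda2r and Mdm2 (0.36 ± 0.12, adjusted p = 0.00949, lost with no low-count filter, where it was 0.26 with adjusted p = 0.0775, and without MT1 replicate 1, 2 or 5 or MT2 replicate 3) were higher in MT1. The Eda2r call adds no support here either, since this gene passed the low-count filter only through MT1. Ccng1 (-1.81 ± 0.15), Zmat3 (-1.16 ± 0.20) and Bax (-0.80 ± 0.18) were lower in MT1. Cdkn1a (-0.26), Phlda3 (-0.69) and Bbc3 (0.52) were not called between the tumors, and this contrast shares its libraries with those above. Cdkn1a was called lower in MT1 in 5 of 12 alternatives that kept all libraries, among them, chosen after seeing the data, that without cluster 5 (-0.58, adjusted p = 0.00176), and without MG1 replicate 1 or MT1 replicate 2. Phlda3 was called lower in MT1 without cluster 5 (-1.18, adjusted p = 0.00455) and without any 1 of 4 libraries (MG1 replicates 1 and 2, MT1 replicate 2 and MT2 replicate 2). Between the glands, where 5.36% of all genes were called (2.54% higher and 2.82% lower in MG1), 0 of the 10 genes were called by edgeR, 1 had an unadjusted p under 0.05 (Phlda3, log2 difference 1.78 ± 0.66, adjusted p = 0.127), and DESeq2 called 0.

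The fit with the animal as replicate, 4 sums with the mouse as block, called 0 of 14970 genes (0%) with edgeR and so 0 of the 10. At an unadjusted p under 0.05 it had 2211 genes, 2 of them members (Cdkn1a, -1.51 ± 0.40, and Trp53inp1, -2.99 ± 0.89). DESeq2 on the same sums called 1320 genes and 1 of the 10, Trp53inp1.

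Levels were next described by cell type, as CPM of the UMIs of a cluster in a group with an exact Poisson 95% interval, which covers counting error only. Clusters were made from the same counts, so these values carry no test. In MT2, Trp53 was low in the tumor clusters and higher in the other cells of the suspension. It stood at 10.2 CPM (8.95 to 11.6) in cluster 1 and 10.5 CPM (9.03 to 12.03) in cluster 2 of MT2, but at 36.6 CPM (25.2 to 51.4) in its fibroblast-like, 51.7 CPM (34.3 to 74.7) in its immune-like and 37.0 CPM (12.02 to 86.4, 5 UMIs) in its endothelial-like cells. Over the 3 MT2 libraries cluster 1 ranged from 9.36 to 11.3 CPM and the fibroblast-like cells from 26.4 to 46.6 CPM, without overlap. In MT1, Trp53 stood at 119 CPM (112 to 126) in cluster 3, 99.4 (91.8 to 107) in cluster 4 and 94.6 (85.1 to 105) in cluster 5, with overlapping intervals for the last pair. Other cells of MT1 had 93.9 CPM (57.4 to 145, 20 UMIs, endothelial-like), 70.9 CPM (36.7 to 124, 12 UMIs, hormone-sensing-like) and 48.2 CPM (27.0 to 79.5, 15 UMIs, fibroblast-like), and the first 2 of these intervals overlap those of tumor clusters. The gland epithelial types lay between 31.0 CPM (hormone-sensing-like, MG1) and 58.1 CPM (hormone-sensing-like, MG2).

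Over the 5 MT1 libraries Trp53 ranged from 101 to 139 CPM in cluster 3, 95.1 to 105 in cluster 4 and 84.4 to 132 in cluster 5, which overlap. Cdkn1a stood at 87.6 CPM (81.6 to 94.0) in cluster 3, 195 (184 to 206) in cluster 4 and 279 (262 to 296) in cluster 5, and over the 5 libraries these clusters ranged from 64.2 to 122, 165 to 226 and 200 to 308 CPM. Cdkn1a in MT2 was 169 CPM in cluster 1 and 220 CPM in cluster 2. Among the gland epithelial clusters, Cdkn1a stood at 772 CPM in MG1 and 947 in MG2 in basal-like, 721 and 523 in secretory-like and 478 and 475 in hormone-sensing-like cells. In MG1 replicate 1 secretory-like cells had 786 CPM and basal-like cells 761 CPM, while the 37 secretory-like cells of MG1 replicate 2 had 422 CPM (94 UMIs), so that the pooled 721 CPM rests on replicate 1. The endothelial-like gland cells had 1762 CPM in MG1 (20 cells, 124 UMIs) and 983 CPM in MG2 (88 cells, 309 UMIs). The 69 hormone-sensing-like cells found in MT1 had 609 CPM, above each MT1 tumor cluster.

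Trp53inp1 in hormone-sensing-like cells stood at 436 CPM in MG1 and 387 CPM in MG2, beside 101 and 157 CPM in secretory-like and 34.3 and 66.7 CPM in basal-like cells. The MG1 value rests on replicate 1 (498 CPM), since the 26 such cells of replicate 2 had 129 CPM. In MT1 it was 149 CPM in cluster 4, 60.1 in cluster 3 and 15.4 in cluster 5, beside 12.6 CPM (11.1 to 14.1) in MT2 cluster 1. Hormone-sensing-like cells made up 34.2% to 43.5% of the gland cells in the sums and at most 1.43% of those of any tumor library, and their part in the fall of Trp53inp1 was not tested.

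Eda2r in MT1 came mostly from cluster 5, which held 42 of its 46 UMIs in the sums (10.98 CPM, 7.91 to 14.8), while the epithelial-like clusters 3 and 4 had 1 and 2 UMIs. MT2 clusters 1 and 2 had 0 UMIs, which allows up to 0.134 and 0.162 CPM, and all 9 Eda2r UMIs of MT2 lay in stromal clusters, 7 of them in fibroblast-like cells. Phlda3 in basal-like cells rests on few UMIs (34.3 CPM in MG1, 11 UMIs, and 15.01 CPM in MG2, 9 UMIs), and it stood at 12.8 CPM in cluster 5 against 5.04 and 4.34 CPM in clusters 3 and 4. Over the 5 MT1 libraries it ranged from 2.66 to 36.9 CPM in cluster 5, 1.28 to 13.4 in cluster 3 and 0 to 8.83 in cluster 4, which overlap. Of the 35 Phlda3 UMIs of MG1, 7 (20.0%) came from its 14 cells in tumor clusters. Ccng1 was low in each MT1 tumor cluster (7.94, 8.53 and 16.7 CPM) and 41.4 CPM in the hormone-sensing-like cells of the same tumor, which rests on 7 UMIs.

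**Figure D3:**
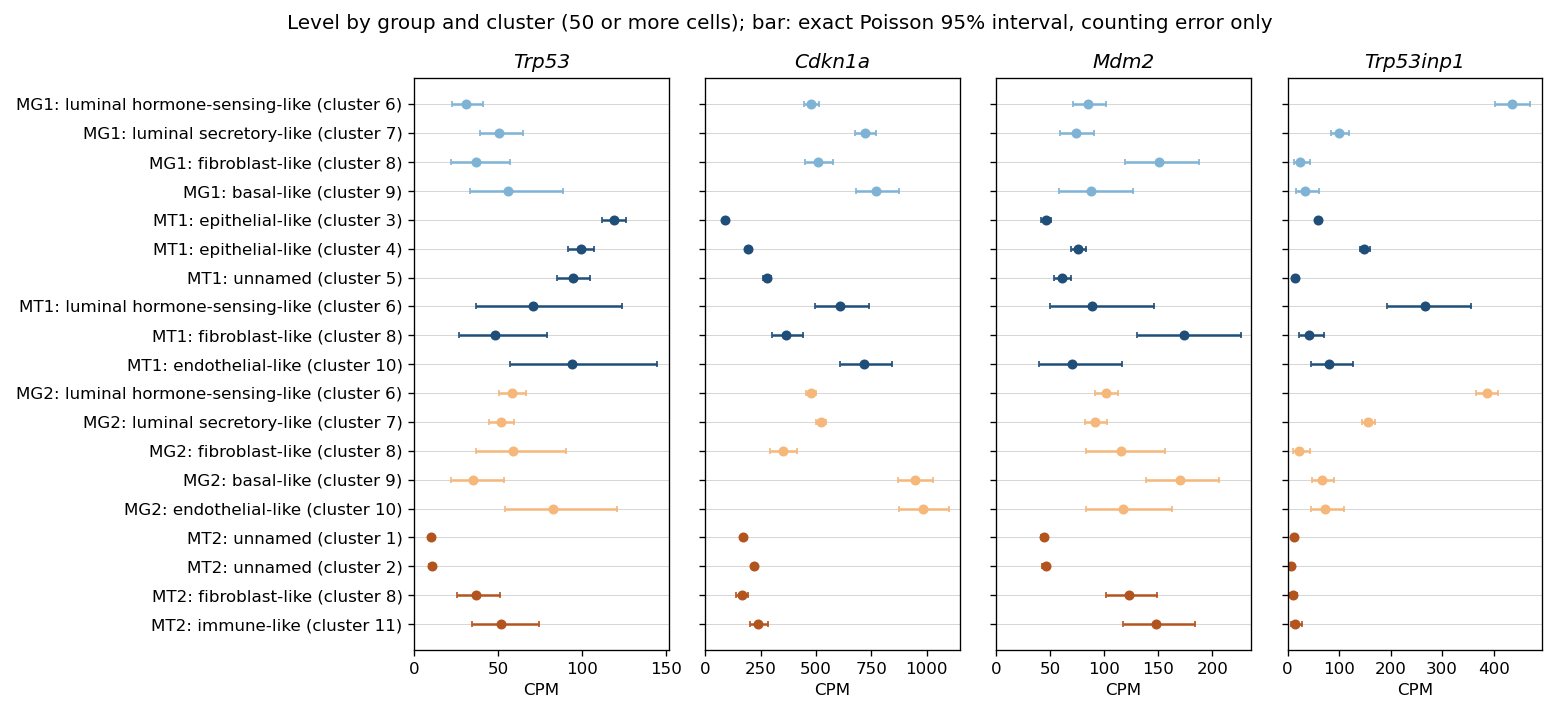
CPM of Trp53, Cdkn1a, Mdm2 and Trp53inp1 (horizontal axes from 0) in each group and cluster with 50 or more cells; points are pooled UMIs and bars exact Poisson 95% intervals. Trp53 in MT2 is near 10 CPM in clusters 1 and 2 and several times higher in its fibroblast-like and immune-like cells, and Trp53inp1 in hormone-sensing-like cells is at 436 CPM in MG1 and 387 CPM in MG2.

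Fibroblast-like cells, a cluster in which all 10 fibroblast markers were raised and which MMTV-Cre is not meant to target, gave a comparison within a cell type present in all 12 libraries (697 cells). Cluster 1 of MT2 had 3 of these 10 markers raised, and whether some tumor cells lie in the fibroblast-like cluster was not tested. Only Trp53, Cdkn1a and Mdm2 had enough UMIs to be tested among 3931 genes. Cdkn1a fell here too, from 593 and 872 CPM in MG1 to 181 to 511 CPM in MT1 (log2 change -0.95 ± 0.30, adjusted p = 0.0167) and from 418 and 432 CPM in MG2 to 173, 202 and 174 CPM in MT2 (-1.21 ± 0.33, adjusted p = 0.00944). Tumor libraries lay below their gland in both mice. Called genes were 36.6% of all in mouse 1 (20.4% lower) and 21.2% in mouse 2 (12.2% lower). Trp53 was not called in either mouse (0.08 ± 0.59 and -0.83 ± 0.53, adjusted p = 0.936 and 0.282), Mdm2 neither (-0.11 ± 0.35 and -0.06 ± 0.37), and 0 of the 3 differed between the mice, where 3.94% of genes did (2.82% higher and 1.12% lower), with 0 at an unadjusted p under 0.05 and 0 by DESeq2. The Cdkn1a calls were lost without MG1 replicate 2 or MT1 replicate 5 in mouse 1, and without either MG2 library in mouse 2. Leaving out each library in turn, the log2 change of Cdkn1a ranged from -1.16 to -0.71 in mouse 1 and from -1.26 to -1.14 in mouse 2.

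Cycling and noncycling cells of the tumor clusters were compared within each library, since p21 is an inhibitor of the cell cycle. Cells were thinned to 500 UMIs and called cycling with 2 or more UMIs over 18 proliferation genes, none of them a member, which took 885 of 7365 tumor-cluster cells in MT1 and 2408 of 9790 in MT2. In MT1, Trp53 was higher in cycling cells by 0.40 ± 0.10 on the log2 scale (adjusted p = 0.00220), with 133 to 184 CPM in cycling against 93.5 to 117 CPM in noncycling cells in 4 libraries, and 104 against 124 CPM in MT1 replicate 1. It was the 1 call among the 5 members tested, where 32.9% of genes were called (17.9% higher and 15% lower in cycling cells). In MT2, Cdkn1a was higher in cycling cells by 0.20 ± 0.05 (adjusted p = 0.00157), with 197, 231 and 197 CPM in cycling and 169, 201 and 175 CPM in noncycling cells. It was the 1 call among the 9 members tested, where 31.1% of genes were called (15.8% higher and 15.3% lower). Median UMIs per cell were higher in cycling cells (2423 against 2072 in MT1, 3266 against 3102 in MT2), and neither call passed with DESeq2 (adjusted p = 0.0535 and 0.0648). Trp53inp1, at -0.14 in MT1 and -0.46 in MT2 (adjusted p = 0.398 and 0.0510), was called lower in cycling cells when classes came from unthinned counts (-0.43, adjusted p = 1.56e-04, in MT1 and -0.70, adjusted p = 0.00419, in MT2) and, in MT2, with no low-count filter (-0.48, adjusted p = 0.0341) and without MT2 replicate 1 (-0.67).

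To see the rest of the pathway, 33 other p53 targets and 20 p53 regulators and relatives were read from the same fit. Of the 30 other targets tested, 10 rose and 6 fell in MT1 (32.3% and 27.1% of all genes), and 6 rose and 16 fell in MT2 (32.6% and 34.2% of all genes). 7 of the 30 (Btg2, Ei24, Perp, Plk2, Pmaip1, Steap3 and Tap1) were called above the gland in MT1 and below it in MT2, the pattern of Trp53, where 5% of all genes were. 5 others (Epha2, Gadd45a, Polk, Sesn2 and Sfn) were called lower in both tumors, where 16.6% of all genes were. Fas and Sesn1 were called higher in both (18.3% of all genes), and Ak1 lower in MT1 and higher in MT2 (2.47%). In the interaction 12 were called in the direction of Trp53 and 3 against it (26.3% and 17.2% of all genes), and the median log2 difference was 0.32 beside 0.15 over all genes.

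The 5 with the largest called difference between the mice all went the way of Trp53. Plk2, a kinase of the polo family, stood at 118 ± 28.4 CPM in MG1 (SD, n = 2), 181 ± 12.6 in MT1 (n = 5), 112 ± 6.12 in MG2 (n = 2) and 7.83 ± 0.723 in MT2 (n = 3), a log2 difference between the mice of 4.41 ± 0.24 (SE, adjusted p = 8.74e-11). Perp, a protein of desmosomes with a role in p53-dependent apoptosis, rose from 62.7 to 191 CPM on mean in mouse 1 and fell from 53.1 CPM to 7.89 to 12.5 CPM in mouse 2 (difference 3.91 ± 0.30). Pmaip1, the BH3-only protein Noxa, went from 7.26 to 46.9 and from 9.75 to 6.03 CPM (3.14 ± 0.43). Tap1, a peptide transporter of antigen presentation, went from 11.6 to 40.4 and from 17.7 to 6.14 CPM (3.14 ± 0.32), and Steap3, a metalloreductase, from 1.66 to 10.3 and from 2.97 to 1.42 CPM (adjusted p = 9.14e-04). Steap3 had 8 UMIs in MG1, at 3.33 CPM in replicate 1 and 0 UMIs in replicate 2, so that its mean of 1.66 CPM rests on replicate 1. All 5 were called in each mouse, which their choice by a large called difference makes likely.

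Of the 19 regulators and relatives tested, 4 rose and 8 fell in MT1, where 59.4% of all genes were called, and 5 rose and 10 fell in MT2, where 66.8% were. 9 of the 19 differed between the mice (6 in the direction of Trp53), where 43.5% of all genes did. Ppp1r13b (Aspp1), which steers p53 to apoptotic targets, fell to 7.57 CPM (mouse 1, from 17.2) and to 1.02 CPM (mouse 2, from 20.6; difference 3.13 ± 0.41, adjusted p = 7.69e-06). Ppp1r13l (iAspp), an inhibitor of p53, fell from 44.6 to 20.0 and from 38.5 to 3.13 CPM (2.43 ± 0.34). Hipk2, a kinase that phosphorylates p53, fell to 10.2 CPM (mouse 1, from 50.2) and rose to 66.8 CPM (mouse 2, from 38.4), with adjusted p = 3.67e-07 for the difference. Chek2, the checkpoint kinase, rose from 1.06 to 5.13 CPM in mouse 2 and was 3.73 and 5.25 CPM in mouse 1 (-1.80 ± 0.64, adjusted p = 0.0296), and Rchy1 (Pirh2), a ligase for p53, rose from 20.7 to 46.4 and fell from 23.5 to 16.3 CPM (1.76 ± 0.28). Cdkn2a, the locus of Arf, an inhibitor of Mdm2, is named after its values were seen: it rose in both tumors, from 19.1 to 214 CPM and from 26.1 to 242 CPM. These counts are of the whole locus and do not show which of its transcripts rose.

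**Figure D4:**
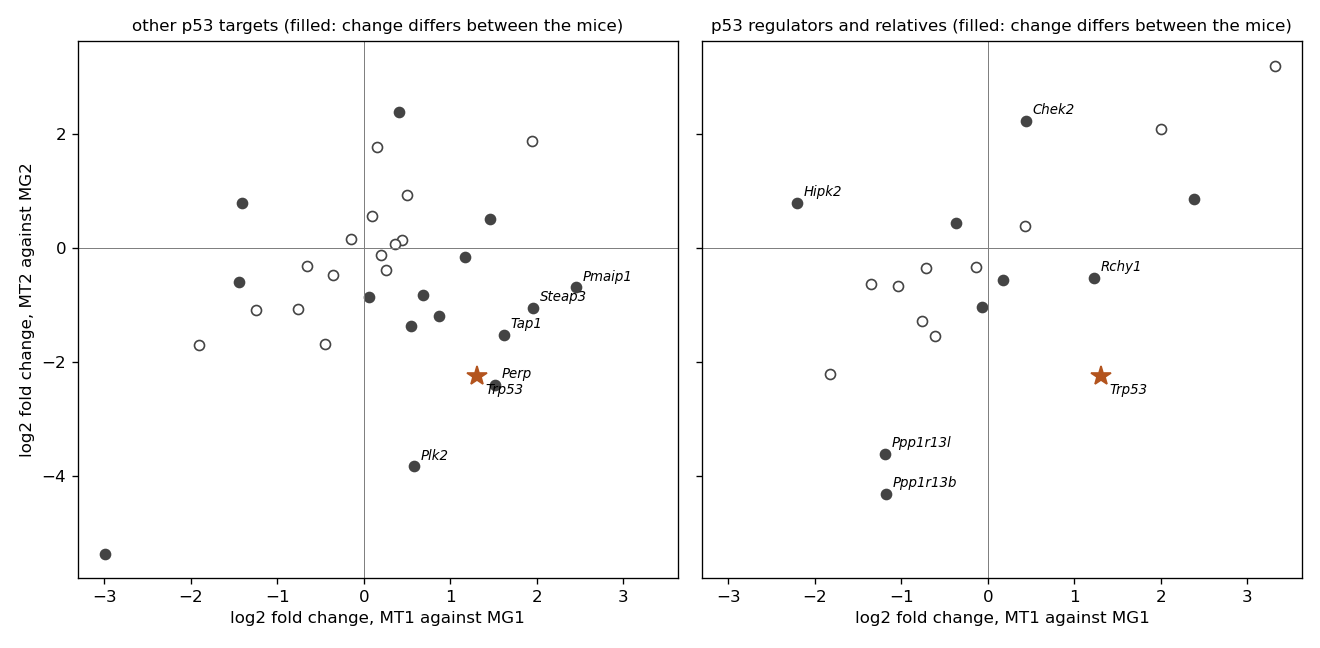
Log2 fold change in mouse 1 (horizontal) against mouse 2 (vertical) for the other p53 targets (left, 30 genes) and the p53 regulators and relatives (right, 19 genes), with filled points where the change differs between the mice and Trp53 as a star. Plk2, Perp, Pmaip1, Tap1 and Steap3 lie to the right of 0 and below 0, as Trp53 does.

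The neighbours of Trp53 on chromosome 11 were read as a property that the choice of genes did not use. Of the 20 neighbours, the 10 nearest tested genes on either side, 0 were called higher in MT1 and lower in MT2, near the 5% of all genes with this pattern, and 10 were lower in both tumors, where 16.6% of all genes were. Their median log2 change was -1.35 in MT1 and -0.62 in MT2. Wrap53, which lies just before Trp53 on the other strand, stood at 3.32 ± 2.36 CPM in MG1 and 3.75 ± 0.673 CPM in MT1, and at 3.32 ± 0.373 CPM in MG2 and 2.29 ± 0.678 CPM in MT2, and was not called (-0.11 ± 0.46 and -0.53 ± 0.37). Kdm6b, a histone demethylase, fell in both (-2.61 ± 0.19 and -1.85 ± 0.19). On the other side Fxr2, an RNA-binding protein (-1.54 ± 0.29 and -0.69 ± 0.26), and Mpdu1, a protein of dolichol sugar use (-0.78 ± 0.24 and -1.69 ± 0.19), fell in both.

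**Figure D5:**
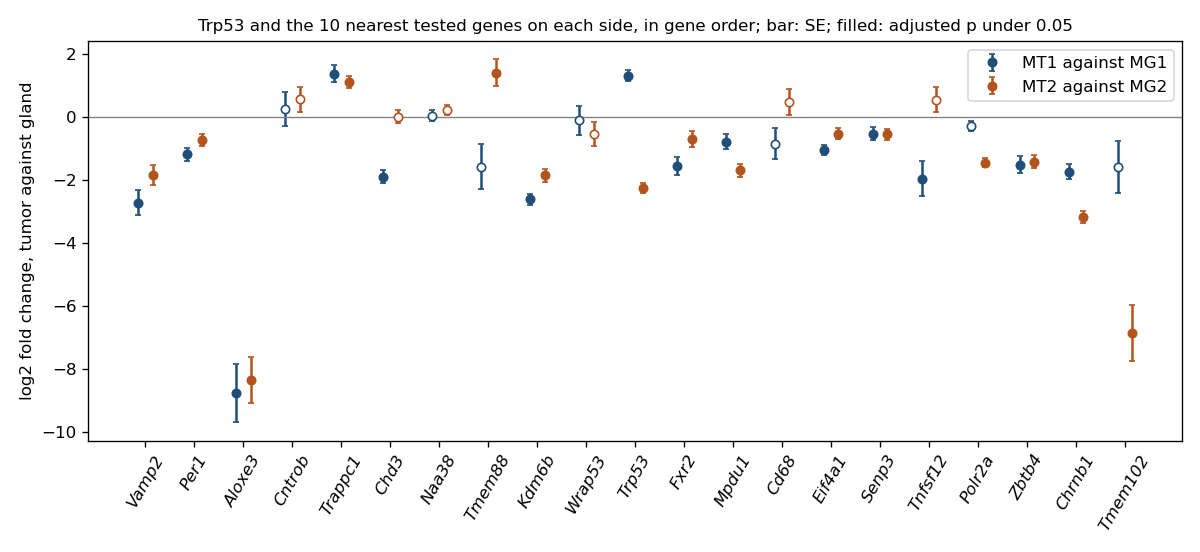
Log2 fold change (± SE) of Trp53 and its 10 nearest tested neighbours on each side, in gene order and without distances, for mouse 1 (blue) and mouse 2 (brown), filled where adjusted p is under 0.05. Trp53 is called above 0 in mouse 1 and below 0 in mouse 2; fitted values of Aloxe3 in both tumors and of Tmem102 in MT2 stand for 0 UMIs.

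Among 8440 tested genes with a mean of 10 CPM or more, the 5 whose levels over the 12 libraries were most like those of Trp53 were BC006965, Ubd, Cited4, Irf7 and Parp9 (Pearson r of log2(CPM + 1) between 0.993 and 0.997). Their mean levels went from 24.3, 18.2, 18.9, 8.92 and 33.8 CPM in MG1 to 218, 126, 71.8, 52.2 and 76.6 CPM in MT1, and all 5 were lower in MT2 than in MG2. The 5 most like Cdkn1a were Dgat2, Zfp609, Dicer1, Brd2 and Sltm (r between 0.980 and 0.987), all lower in both tumors. None of these 10 is on the lists of this pathway (10, 33 and 20 genes). So few of the 8440 genes are listed that this says little. The 12 points are 4 tissues, so these r are descriptions.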

How the data were processed

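UMI counts for each gene in each cell were used as deposited, not normalized; the authors made them with Drop-seq tools and STAR against GRCm38.p6 (the last 2 per the submitters' processing notes), and every cell kept has at least 800 genes. Use of strand, and how reads shared with the Trp53 pseudogene were counted, are not given in the sources used here. The 10 genes, the lists and the rules were chosen with earlier results of these data known. Clustering used scanpy 1.11.5 with leidenalg 0.10.2 (3000 variable genes, 30 components, 20 neighbours, resolution 0.6). A cluster was named from at least 3 raised markers and 40% of a list, a threshold set after seeing the data, which left clusters 1, 2 and 5 unnamed (cluster 1 had 3 of 10 fibroblast markers). Only 44 cells (0.208%) were marked as doublets, so the calls were not relied on, and none were removed. Counts of the 20036 cells outside stromal clusters were summed per library and tested in 4 groups with edgeR 4.0.16 in R 4.3.3 (TMM, filterByExpr, quasi-likelihood F test, Benjamini-Hochberg over all genes); SE is the absolute log2 change over the square root of F. Fits were tested on simulated data. Named beyond the 10 genes were, of each list, the 5 largest called differences between the mice, the 2 nearest neighbours of Trp53 on each side, and the 5 genes most like Trp53 and Cdkn1a. Gland and tumor of a mouse are paired by the labels, so the paired fit has the mouse as block.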

Additional observations from a re-analysis of the deposited data

Results flagged for a closer look

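In MT1, Bbc3 stood at 12.6 CPM in replicate 2, apart from the other 4 libraries; 10 such groups of 5 libraries were looked at, and chance flags about 1 group in 20. The same library had the highest Phlda3 (14.5 CPM) and Bax (29.8 CPM) of the 5, and its share of cluster 5 was the lowest (9.90%, against 16.7% to 21.6%). Their part in the value was not tested. The tumor change differed between the mice, by the interaction test, for Trp53 (log2 difference 3.56, known when the genes were chosen), Mdm2 (0.53), Ccng1 (-1.67), Phlda3 (-2.48), Bax (-1.31), Trp53inp1 (3.01), Zmat3 (-1.30) and Eda2r (fitted value 7.66, which rests on 0 UMIs in MT2 and is no measured fold). Eda2r also passed the low-count filter only through MT1, where it was high.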

How the results depend on the processing

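Replicate numbers follow accession order and pair no libraries; with the mouse as replicate block the paired fit called 0 members, 0 also with no replicate block, and 1 with DESeq2. Leaving out each library in turn, the members called ranged from 4 to 8 in MT1 against MG1 (7 with all libraries), 5 to 9 for the difference between the mice (8), 0 to 1 between the glands (0), 0 to 1 in fibroblast-like cells of either mouse (1) and 1 to 2 for cycling cells of MT2 (1); neighbours of Trp53 ranged from 8 to 14 in MT1 against MG1 (13) and 5 to 11 for the difference (8). Directions that turned, none of them called with all libraries, gave log2 values of -0.023 to 0.21 for Ccng1 in MT2 against MG2 (-0.021 with the gland without basal-like cells) and -0.46 to 0.21 for the Bbc3 difference; between the glands -0.058 to 0.41 for Cdkn1a, -1.23 to 0.40 for Trp53inp1 and -0.58 to 0.31 for Zmat3; in fibroblast-like cells -0.22 to 0.32 for Trp53 and -0.15 to 0.00049 for Mdm2 in mouse 1, -0.32 to 0.23 for Mdm2 in mouse 2 and -0.26 to 0.27 for its difference; and in cycling cells of MT2 -0.14 to 0.17 for Trp53 and -0.075 to 0.16 for Zmat3. Fibroblast-like cells with no low-count filter gave -0.018 (Trp53, mouse 1) and 0.040 (Mdm2, mouse 2), and 0.16 (Mdm2, mouse 2) without the highest 5% of doublet scores. For cycling cells, DESeq2 called 0 members in MT1 and 0 in MT2, classes from unthinned counts called 2 and 2, Trp53inp1 added in each (directions of uncalled genes turned for Trp53 at -0.0032, Mdm2 at 0.0086 and Ccng1 at 0.12 in MT2), and no low-count filter called 2 in MT2, again with Trp53inp1. The cause was not tested. RLE scaling moved the median of all genes by -0.12 in MT1 against MG1 and -0.14 for the difference, and the share of calls higher in MG1 than in MG2 from 47.3% to 60.4%. Trp53, Cdkn1a and Trp53inp1 kept direction and call in both tumors under all 12 alternatives that kept all libraries. Scarce genes (Eda2r, Phlda3, Zmat3, Bbc3) are limited by depth, most of all in MG1.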
